A study of Mus musculus with 8 samples.

Results

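Messenger RNA of 10 inflammatory and regulatory cytokines was examined in the stromal vascular fraction (SVF) of gonadal white adipose tissue (WAT), the cells that remain when floating adipocytes are removed from a collagenase-digested fat pad. The members were chosen as cytokines linked to the inflammation of obese fat: Tnf, Il6, Il1b, Il18, Ifng, Il9 and Lif as ligands that drive or modulate inflammation, and Il1rn, Il10 and Tgfb1 as an antagonist and regulatory ligands. They are 10 of the 54532 genes in the count table. Of these, 8 passed the filter on low counts, Ifng was at the edge of detection and Il9 had no count in any mouse. None of the 8 passed the test between mice given anti-BAFF Ab and mice given control Ab, and for each of them the levels of the groups overlapped.

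All mice were male C57BL/6J, placed at 6 weeks of age, per the labels, on a high-fat diet (HFD, 60% of calories from fat) for 12 weeks to make them obese and insulin resistant. The methods of the study name older starting ages, so the age is uncertain. Feed was next changed to normal chow (16% of calories from fat), and the mice were injected with 2 mg/kg of antibody every 2 weeks for 6 weeks, up to week 18. The control Ab group (mice 1, 2, 6 and 9) received an isotype IgG1k, and the anti-BAFF Ab group (mice 5, 7, 8 and 10) received clone Sandy-2, which neutralizes BAFF, a survival factor of B2 cells. Both groups were therefore mice first made obese and then put on a diet intervention, during which the study reports weight loss in both. No lean or untreated group is compared here, and the groups were set after a glucose tolerance test. Each library carries its own number in the labels, taken here as 1 mouse, and came from 1 gonadal fat pad, digested for 1 hour before red cells were lysed. The libraries held between 13562340 and 18548024 counts. Markers of the stromal fraction were present in all 8 libraries: the 10 macrophage markers summed to between 9052 and 13311 CPM (a count as its share of the TMM-adjusted library total) and the 8 markers of adipocyte progenitors and fibroblasts to between 6095 and 8030 CPM. The library of control mouse 1 stood apart from its group, with a chi-square per degree of freedom of 60.0 to 77.3 against the other control mice, which differed among themselves by 7.91 to 25.3. The libraries of mice 2 and 7, 1 of each group, held the most transcripts of the epididymis, which adjoins this fat pad. There the 10 epididymis markers summed to 1664 and 1730 CPM, with Lcn9 and Cst11 at 0 in all 8 mice. Mice 5 and 6 had sums of 730 and 700 CPM. Mice 1, 8, 9 and 10 had 13.7, 124, 105 and 59.4 CPM.

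Cytokines are small, mostly secreted proteins that act through receptors on nearby cells, many of them with paired subunits. In obese WAT, TNF, IL-1β and IL-6 are made largely by macrophages and stromal cells, and TNF and IL-1β signal through NF-κB while IL-6 and LIF signal through gp130 and STAT3. IL-1 receptor antagonist, encoded by Il1rn, occupies the IL-1 receptor without signaling, IL-10 restrains macrophage activation, and TGF-β1 is secreted in a latent form that must be released from its carrier. IL-1β and IL-18 are made as precursors that caspase-1 cleaves in the inflammasome, so their transcripts do not give the level of the active protein.

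The proximal promoters of Il6, Il1b, Tnf and Tgfb1 are shown because Il6 and Il1b were low together in mice 1 and 7, Tnf was high in the same mice, and Tgfb1 was the steadiest cytokine. Each line gives the 150 bases before the RefSeq transcript start in GRCm38.p6 (the same assembly as mm10), read 5′ to 3′ on the strand of the gene.
Il6, chr5:30012964-30013113, plus strand: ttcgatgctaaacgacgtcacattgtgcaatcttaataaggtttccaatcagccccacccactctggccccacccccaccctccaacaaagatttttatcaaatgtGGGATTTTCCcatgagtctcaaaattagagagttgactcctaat
Il1b, chr2:129371140-129371289, minus strand: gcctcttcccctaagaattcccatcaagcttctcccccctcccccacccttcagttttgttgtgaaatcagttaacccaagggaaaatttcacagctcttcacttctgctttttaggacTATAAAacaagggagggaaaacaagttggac
Tnf, chr17:35202008-35202157, minus strand: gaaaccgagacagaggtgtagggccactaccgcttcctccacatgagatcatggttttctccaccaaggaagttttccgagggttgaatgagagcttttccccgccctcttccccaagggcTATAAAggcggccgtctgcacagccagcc
Tgfb1, chr7:25686852-25687001, plus strand: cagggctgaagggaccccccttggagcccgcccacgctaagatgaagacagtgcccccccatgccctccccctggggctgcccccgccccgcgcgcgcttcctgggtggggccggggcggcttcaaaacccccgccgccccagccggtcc
Capitals mark matches, on either strand, to 3 motifs: the κB decamer (3 G, any 2 bases, 2 T, any base and 2 C), AP-1 written as TGANTCA and the TATA box written as TATAAA. Il6 held a κB match whose last base lies 35 bases before the start. Il1b and Tnf each held a TATA box, its last base 26 and 24 bases before the start respectively, and Tgfb1 held none of the 3. Of the windows not shown, those of Lif and Il18 also held none. Ifng held a TATA box, Il9, which had no counts, a κB and an AP-1 match, and the windows of Il1rn a κB and an AP-1 match between them. Among all 32851 RefSeq windows of this length, 2.63% held the κB letters, 4.24% the AP-1 letters and 7.57% the TATA box. These are matches of letters, no binding was measured, and their part in the cytokine levels was not tested.

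Per kilobase of gene length, Il1b was the most abundant of the 10 cytokines, followed by Il6, Tnf, Il10, Tgfb1, Il1rn, Lif, Il18 and Ifng. Levels per length are given as FPKM, the CPM divided by the length in kilobases, computed from the counts and the gene length in the table. The mean over 8 mice was 259 ± 104 FPKM (SD, n = 8) for Il1b, which placed it at rank 152 of the 15963 genes tested, and 149 ± 57.5 FPKM for Il6, at rank 303. Il1b was above Il6 in 8 of 8 mice. Tnf (72.5 ± 26.7 FPKM), Il10 (59.0 ± 18.0 FPKM) and Tgfb1 (55.5 ± 3.15 FPKM) came next, the SDs of Tnf and Il10 covering the mean of Tgfb1. Tnf was above Il10 in 3 of 8 mice and Il10 above Tgfb1 in 6 of 8. Il6 was above Tnf in 6 of 8 mice, the exceptions being mice 1 and 7. Il1rn followed at 27.7 ± 5.11 FPKM, below Tgfb1 in 8 of 8 mice. Lif (7.15 ± 2.92 FPKM) and Il18 (6.23 ± 1.26 FPKM) also overlapped, with Lif the higher in 6 of 8 mice.

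The depth placed 7 of the 10 cytokines well above counting error, measured Il18 less firmly, and was too low for Ifng and Il9. Il1b rested on a mean of 7868 counts per mouse, Il6 on 5748, Tgfb1 on 4506, Il1rn on 2457, Tnf on 1956, Il10 on 1236 and Lif on 497. For these 7, Poisson counting gave between 0.0708% (Il1b) and 6.57% (Tgfb1) of the variance within the groups. For Il18, with a mean of 103 counts per mouse, counting gave 21.8% of the variance. Ifng had between 1 and 13 counts per mouse, 47 in all, and counting gave 32.1% of its variance. These shares cover counting error only. Some of the genes overlap others in the annotation, Il1b the antisense gene Il1bos (126 counts in all), Il18 the genes Bco2 and Tex12 (178 and 22) and Ifng the gene AC153498.1 (10), and the strand used for counting was not given in the sources used here.

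**Figure D1:**
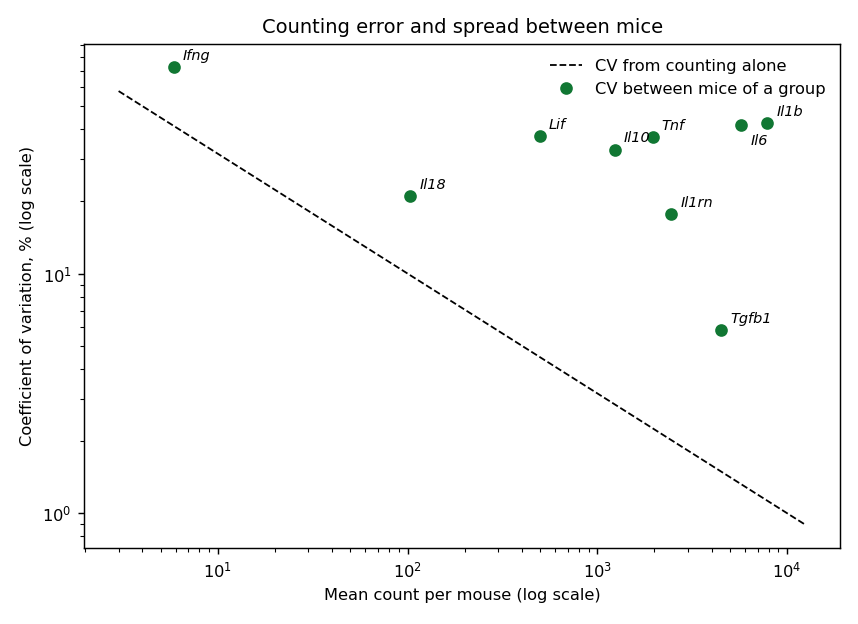
Mean count per mouse (x axis, log scale) against the coefficient of variation in percent (CV, y axis, log scale) for the 9 cytokines with counts. Green points are the CV of CPM between mice of a group and the dashed line is the CV that counting alone gives. Tgfb1 lies lowest at 5.81%, Ifng lies highest at 72.8%, and 6 of the other cytokines with over 100 counts are far above the line while Il18 is nearer to it.

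The spread between mice differed widely among the cytokines. Tgfb1 had a within-group CV of 5.81%, below the median of 12.2% for the 10822 genes with a mean of at least 100 counts. Il1b, Il6, Lif, Tnf and Il10 had CVs of 42.4%, 41.7%, 37.4%, 37.2% and 32.9%, which placed them at the 97.1, 97.0, 96.0, 95.9 and 94.4 percentiles of those genes. Il18 (21.1%) and Il1rn (17.8%) were intermediate. From the lowest to the highest of the 8 mice, Il6 spanned 4.60-fold, Lif 4.34-fold, Il1b 3.52-fold, Il10 2.77-fold, Tnf 2.61-fold, Il18 1.87-fold, Il1rn 1.71-fold and Tgfb1 1.18-fold.

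In the comparison of anti-BAFF Ab with control Ab, which asks whether neutralizing BAFF during diet intervention changed the transcripts of the SVF, 0 of the 8 cytokines tested passed an adjusted p of 0.05 by edgeR's quasi-likelihood test with Benjamini-Hochberg adjustment, and 9 of the 15963 genes tested did (0.0564%). At an unadjusted p under 0.05 there were 0 of 8 cytokines, against 1.90% of all genes, and DESeq2 and limma also called 0 of them by either p. The 2 groups overlapped in CPM for all 8, whereas 1.48% of all genes did not overlap. The adjusted p was 1.00 for each of the 8. In 7 of the 8, all but Il10, the fitted log2 fold change was above 0, with 0.004 as the median of all genes.

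**Figure D2:**
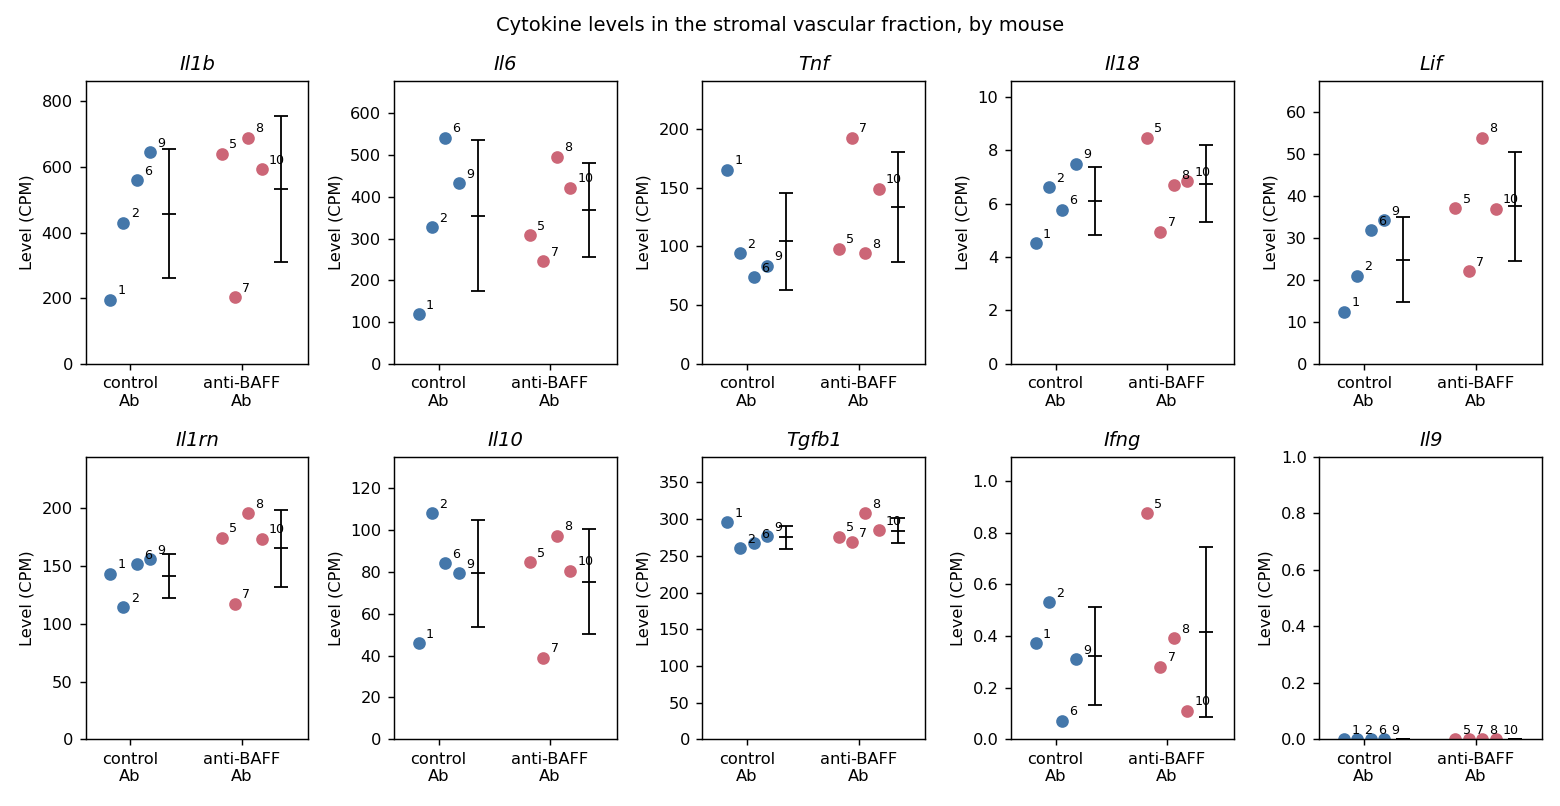
Level of each cytokine in CPM (y axis, from 0) in the 4 control Ab mice (blue) and the 4 anti-BAFF Ab mice (red), with mouse numbers beside the points and the mean ± SD as black bars to the right of each group. The groups overlap in every panel. Mice 1 and 7 are the lowest for Il1b, Il6, Il18 and Il10 and the highest for Tnf, and Il9 is at 0 throughout.

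Tnf, the founding ligand of its family and an inducer of insulin resistance in fat (ENSMUSG00000024401, mm10 chr17:35199381-35202007, minus strand), was at 165, 94.3, 73.9 and 83.6 CPM in control mice 1, 2, 6 and 9 and at 98.0, 193, 94.4 and 149 CPM in anti-BAFF mice 5, 7, 8 and 10. The highest levels were in mice 7, 1 and 10, of both groups. The means were 104 ± 41.5 and 134 ± 46.7 CPM (SD, n = 4 each), with a log2 fold change of 0.36 (SE 0.30, 95% interval -0.33 to 1.04, adjusted p = 1.00 by edgeR). Without control mouse 1 the log2 fold change was 0.65 and its unadjusted p by edgeR was 0.0293, with an adjusted p of 0.423. It was 0.11 without mouse 7 and 0.07 without mice 2 and 7, with unadjusted p-values of 0.701 and 0.841 by edgeR. The 8 markers of mast cells, which store TNF, summed to 1147, 569, 947 and 890 CPM in control mice 1, 2, 6 and 9 and to 1026, 1590, 1326 and 1071 CPM in anti-BAFF mice 5, 7, 8 and 10. Mouse 7 was the highest for both, whereas mouse 8 was high for the markers and not for Tnf. All 8 markers had a log2 fold change above 0. Of them, 4 had an unadjusted p under 0.05 by edgeR, against 1.90% of all genes, and 2 did not overlap, against 1.48%. An adjusted p of 0.05 by edgeR was passed by 0 of them, and the part of these markers in the Tnf level was not tested.

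Il6, made by stromal cells and macrophages (ENSMUSG00000025746, chr5:30013114-30019981, plus strand), was at 118, 327, 542 and 432 CPM in control mice 1, 2, 6 and 9 and at 307, 245, 496 and 422 CPM in anti-BAFF mice 5, 7, 8 and 10. Control mouse 1 had the lowest level of all and control mouse 6 the highest, so the control group enclosed the anti-BAFF group. The log2 fold change was 0.05 (SE 0.41, 95% interval -0.87 to 0.97, adjusted p = 1.00 by edgeR). On the linear scale this interval ran from 0.549-fold to 1.96-fold. The direction turned without control mouse 1 (-0.26), without mouse 8 (-0.14) and without mouse 10 (-0.02).

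Il1b, the precursor of IL-1β (ENSMUSG00000027398, chr2:129364570-129371139, minus strand), was at 196, 430, 560 and 646 CPM in control mice 1, 2, 6 and 9 and at 641, 203, 690 and 593 CPM in anti-BAFF mice 5, 7, 8 and 10. Mice 1 and 7, 1 of each group, stood at less than the level of any of the other 6 mice, which lay between 430 and 690 CPM. Anti-BAFF Ab over control Ab, this was a log2 fold change of 0.22 (SE 0.43, 95% interval -0.74 to 1.17, adjusted p = 1.00 by edgeR). The direction turned when control mouse 1 was left out, to -0.06.

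Il18, another inflammasome product (ENSMUSG00000039217, chr9:50554827-50581840, plus strand), was at 4.53, 6.62, 5.78 and 7.50 CPM in control mice 1, 2, 6 and 9 and at 8.48, 4.95, 6.72 and 6.84 CPM in anti-BAFF mice 5, 7, 8 and 10. Mice 1 and 7 were again the lowest of their groups. Between the groups, the log2 fold change was 0.14 (SE 0.21, 95% interval -0.34 to 0.62, adjusted p = 1.00 by edgeR), and it was near 0 without mouse 1 or without mouse 5 (0.0042 and -0.0020).

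Lif, a ligand of the IL-6 family that signals through Lifr and gp130 (ENSMUSG00000034394, chr11:4257557-4272514, plus strand), had the largest fitted difference of the 8 cytokines. It was at 12.4, 20.9, 31.8 and 34.1 CPM in control mice 1, 2, 6 and 9 and at 37.0, 22.0, 53.8 and 36.9 CPM in anti-BAFF mice 5, 7, 8 and 10. Of the anti-BAFF mice, 5, 8 and 10 were above every control mouse and mouse 7 was within the control range. The means were 24.8 ± 10.1 and 37.4 ± 13.0 CPM (SD, n = 4 each), a log2 fold change of 0.59 (SE 0.34, 95% interval -0.17 to 1.36, adjusted p = 1.00 by edgeR). The unadjusted p by edgeR was 0.114, and it was 0.0479 without mouse 7, where the log2 fold change was 0.76 and the adjusted p 1.00. Without mouse 1 or without mouse 8 the log2 fold change was 0.35, with unadjusted p-values of 0.256 and 0.343 by edgeR.

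Among the regulatory members, Il1rn, the antagonist of IL-1 signaling (ENSMUSG00000026981, chr2:24336853-24351494, plus strand), was at 143, 114, 152 and 156 CPM in control mice 1, 2, 6 and 9 and at 174, 117, 196 and 174 CPM in anti-BAFF mice 5, 7, 8 and 10. As with Lif, mice 5, 8 and 10 were above every control mouse and mouse 7 was within the control range. The log2 fold change was 0.23 (SE 0.16, 95% interval -0.14 to 0.59, adjusted p = 1.00 by edgeR). Without mouse 7 it was 0.34, with an unadjusted p of 0.0233 and an adjusted p of 1.00 by edgeR. It was 0.12 without mouse 8 and 0.14 without control mouse 2, with unadjusted p-values of 0.498 and 0.424 by edgeR. Mice 2 and 7, which had the lowest Il1rn, also had the highest sums of epididymis markers. Mouse 5, next in that sum at 730 CPM, had Il1rn above every control mouse. The part of these transcripts in the Il1rn level was not tested. Without mice 2 and 7 the log2 fold change was 0.25 (unadjusted p = 0.0343 and adjusted p = 1.00 by edgeR).

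Il10, which restrains macrophage activation (ENSMUSG00000016529, chr1:131019845-131024974, plus strand), was at 45.8, 108, 84.1 and 79.3 CPM in control mice 1, 2, 6 and 9 and at 84.6, 39.0, 97.2 and 80.5 CPM in anti-BAFF mice 5, 7, 8 and 10. Mice 1 and 7 were below 46 CPM and the other 6 mice lay between 79.3 and 108 CPM in both groups. The fitted log2 fold change was -0.07 (SE 0.31, 95% interval -0.77 to 0.62, adjusted p = 1.00 by edgeR). It turned to 0.11 without mouse 2, 0.13 without mouse 7 and 0.31 without both.

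Tgfb1, a latent regulator of fibrosis and T cells (ENSMUSG00000002603, chr7:25687002-25705077, plus strand), was at 296, 260, 267 and 277 CPM in control mice 1, 2, 6 and 9 and at 276, 269, 308 and 285 CPM in anti-BAFF mice 5, 7, 8 and 10. No mouse stood apart. The log2 fold change was 0.05 (SE 0.08, 95% interval -0.13 to 0.23, adjusted p = 1.00 by edgeR), so the interval ran from 0.914-fold to 1.17-fold, the narrowest of the 8.

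Ifng, the product of activated T and NK cells (ENSMUSG00000055170, chr10:118441046-118445892, plus strand), had 6, 9, 1 and 5 counts in control mice 1, 2, 6 and 9 and 13, 5, 6 and 2 counts in anti-BAFF mice 5, 7, 8 and 10. The groups overlapped, and the sums were 21 and 26 counts. The means were 0.322 ± 0.190 and 0.415 ± 0.328 CPM (SD, n = 4 each), a difference of 0.0929 CPM with p = 0.657 by a two-sided exact permutation test, in which 4 against 4 mice cannot go below 0.0286. Without mouse 5 the difference turned to -0.0607 CPM. The markers of its usual sources were present at low levels, with 10 T cell markers summing to between 81.4 and 145 CPM and 8 NK cell markers to between 30.9 and 46.7 CPM.

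Il9, a cytokine of helper T cells and innate lymphoid cells (ENSMUSG00000021538, chr13:56479277-56482246, minus strand), had 0 counts in 8 of 8 mice. A floor of 3 counts per library allows a level of up to 0.165 CPM in the largest library and 0.219 CPM in the smallest, and 3 counts over all 8 libraries allow up to 0.0233 CPM. No fold change can be given for it.

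**Figure D3:**
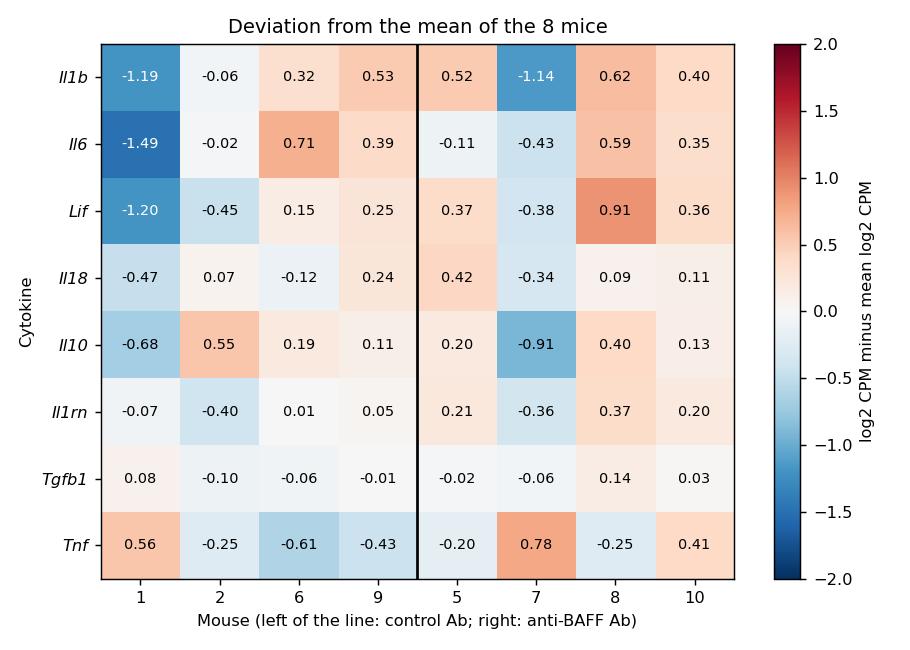
Deviation of each of the 8 tested cytokines (rows) in each mouse (columns, control Ab left of the line and anti-BAFF Ab right of it), as log2 CPM minus the mean log2 CPM of the 8 mice. Control mouse 1 is at -1.49 for Il6 and -1.19 for Il1b and anti-BAFF mouse 7 at -1.14 for Il1b, and both are above 0 for Tnf, at 0.56 and 0.78.

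Across mice, the cytokines moved in a pattern that crossed the groups. Il6, Il1b, Il18 and Il10 had their lowest 2 levels of the 8 mice in control mouse 1 and anti-BAFF mouse 7, and Tnf had its highest 2 levels in the same mice. Anti-BAFF mouse 8 was among the highest 2 for 6 of the 8 cytokines. The relation of antagonist to agonist changed with this pattern: the log2 ratio of Il1rn over Il1b counts was -0.45 in mouse 1 and -0.79 in mouse 7, and between -2.05 and -1.77 in the other 6 mice. The log2 ratio of Tnf over Il10 counts was 1.85 in mouse 1 and 2.31 in mouse 7, 0.89 in mouse 10, and between -0.19 and 0.21 in the other 5. The log2 ratio of Il18bp, which encodes the soluble inhibitor of IL-18, over Il18 counts was 1.05 in mouse 1 and 0.61 in mouse 7 and between -0.08 and 0.34 in the others. The means of the groups differed by 0.01 for Il1rn over Il1b, by 0.45 for Tnf over Il10 and by -0.18 for Il18bp over Il18, each less than the SD within a group.

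Several other gene groups had their lowest summed levels in mice 1 and 7. In mice 1 and 7 respectively, 15 dissociation and immediate early genes, which are induced by tissue digestion among other stimuli, summed to 12809 and 12574 CPM, against 14067 to 20453 CPM in the other 6 mice. STAT3 target genes summed to 3654 and 4428 CPM against 6047 to 7219 CPM, and NF-κB target genes to 5649 and 6390 CPM against 6674 to 8505 CPM. Junb, on both the STAT3 and the dissociation list, had a mean of 2844 CPM in the control mice. By mean log2 CPM, mice 1 and 7 were still the lowest for these lists, but by little in 2 of them. Mouse 1 (9.136) was near mouse 10 (9.139) for the dissociation genes, and mouse 7 (7.79) near mouse 2 (7.81) for the NF-κB targets. The 8 markers of adipocyte progenitors and fibroblasts summed to 6095 and 6267 CPM against 6777 to 8030 CPM, and 8 endothelial markers to 935 and 1055 CPM against 1192 to 1694 CPM. The 10 macrophage markers summed to 13311 and 9661 CPM against 9052 to 11512 CPM, the highest sum being that of mouse 1. Lyz2 was a large part of that sum, with a mean of 5209 CPM in the control mice. By the mean log2 CPM of the markers, mouse 5 (9.16) was above mouse 1 (9.15). The part of these in the cytokine levels was not tested, and in bulk RNA fewer cells of a type and less RNA per cell cannot be told apart. Without mice 1 and 7, a choice made after seeing the data, the log2 fold changes were 0.35 for Il1rn, 0.54 for Lif and 0.42 for Tnf, the unadjusted p-values by edgeR were 0.0279, 0.0399 and 0.0512, and 0 of the 8 passed an adjusted p of 0.05. The share of all genes at an unadjusted p under 0.05 was not worked out for that fit.

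For each cytokine the genes with the most similar pattern were found by Pearson's r of log2 CPM over the 8 mice, among genes with a mean of at least 100 counts. These values are descriptions over 8 points that share mice 1 and 7. They are the 3 highest of the 10821 genes compared for each cytokine, so high values can arise from that choice alone. Il6 was most like Nfix (0.995), Podn (0.994) and Rnf122 (0.993), and Il10 like Plcxd2 (0.992), Gm9800 (0.978) and Sorbs3 (0.977). Il1b was most like Nlrp3 (0.979), which encodes the inflammasome sensor, Tmem255b (0.977) and Vegfa (0.976). Lif was most like Thbs1 (0.983), Paip2b (0.970) and Inhba (0.966), and Tnf like Trim13 (0.965), Rcor1 (0.960) and Igsf6 (0.955). Tgfb1 was most like Rac1 (0.966), Mesd (0.956) and Ube2j2 (0.951). Il18 was most like Mbd5 (0.950), Hmbox1 (0.944) and Mgmt (0.937), and Il1rn like Ppp6c (0.942), Med29 (0.941) and Acap2 (0.932).

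Nlrp3 was at 170, 272, 290 and 322 CPM in control mice 1, 2, 6 and 9 and at 282, 177, 350 and 303 CPM in anti-BAFF mice 5, 7, 8 and 10. It was lowest in mice 1 and 7, as Il1b was. Thbs1, an activator of latent TGF-β, was at 1503, 1800, 2488 and 2594 CPM in control mice 1, 2, 6 and 9 and at 2577, 2020, 2974 and 2517 CPM in anti-BAFF mice 5, 7, 8 and 10. Mouse 1 was the lowest and mouse 8 the highest, as for Lif. Nlrp3 and Thbs1 are the genes most similar to Il1b and Lif in the search above, so these shared mice follow from that choice.

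The receptors were all measurable. All 19 receptor and shared signaling subunits of the 10 cytokines were tested, 0 passed an adjusted p of 0.05 by edgeR, DESeq2 or limma, and the median log2 fold change was 0.05. At an unadjusted p under 0.05, 1 was lower and 1 higher, where 1.90% of all genes passed in either direction. The most abundant per length were the TNF receptors Tnfrsf1b (146 FPKM) and Tnfrsf1a (121 FPKM). Tnfrsf1b had a log2 fold change of 0.20 (SE 0.11), with an unadjusted p of 0.0984 by edgeR. Il6st, which encodes gp130, was at 671 ± 163 and 685 ± 115 CPM (SD, n = 4 each) in the control and anti-BAFF mice, and Il6ra at 117 ± 13.7 and 117 ± 7.71 CPM.

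Il9r, the receptor of the cytokine that had no counts, was the 1 receptor subunit of 19 whose groups did not overlap, against 1.48% of all genes. It was at 1.80, 2.07, 2.27 and 2.29 CPM in control mice 1, 2, 6 and 9 and at 0.88, 1.01, 1.17 and 0.94 CPM in anti-BAFF mice 5, 7, 8 and 10, from 29 to 37 and from 13 to 18 counts. Every anti-BAFF mouse was below every control mouse. The means were 2.11 ± 0.23 and 1.00 ± 0.13 CPM (SD, n = 4 each), a log2 fold change of -1.07 (SE 0.21, 95% interval -1.54 to -0.59) with an unadjusted p of 0.000646 and an adjusted p of 0.322 by edgeR. Il9r did not pass the test over all genes with edgeR, nor with DESeq2 (adjusted p = 0.213). Over the alternatives, the adjusted p ranged from 0.213 to 1.00 and the log2 fold change from -1.16 to -0.246. Leaving out any 1 mouse kept the log2 fold change between -1.16 and -1.02. Beside it, the 8 B cell markers summed to between 56.3 and 69.3 CPM in the control mice. In the anti-BAFF mice they summed to between 27.1 and 47.0 CPM. Of these markers, 7 of 8 were lower at an unadjusted p under 0.05 by edgeR, against 1.90% of all genes in either direction. An adjusted p of 0.05 by edgeR was passed by 0 of these 8 markers, the lowest being 0.145 for Pax5. None was at 0 in any mouse, and the part of these markers in the Il9r level was not tested.

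Il1r2, the decoy receptor that binds IL-1 without signaling, was at 7.69, 8.51, 11.8 and 10.1 CPM in control mice 1, 2, 6 and 9 and at 23.6, 10.6, 14.4 and 13.2 CPM in anti-BAFF mice 5, 7, 8 and 10. Mouse 5 was the highest and mouse 7 lay within the control range. The log2 fold change was 0.70 (SE 0.25), with an unadjusted p of 0.0199 and an adjusted p of 1.00 by edgeR, and it was 0.40 without mouse 5. In mouse 5 the 10 neutrophil markers summed to 344 CPM, against 66.7 to 143 CPM in the other 7 mice, with Ly6g at 0 in 4 mice and Camp in 3, and their part in the Il1r2 level was not tested. Il1r1, the signaling receptor, was at 96.0, 132, 224 and 237 CPM in the control mice and at 125, 174, 304 and 300 CPM in the anti-BAFF mice, with broad overlap.

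**Figure D4:**
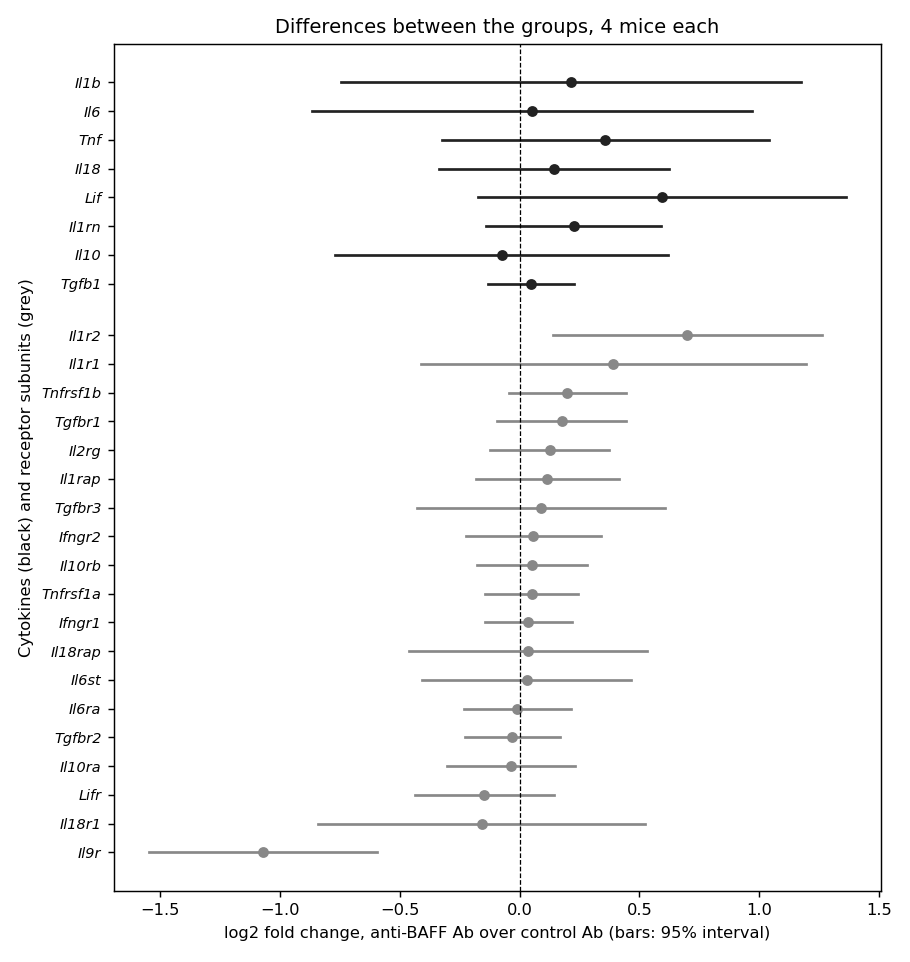
Log2 fold change of anti-BAFF Ab over control Ab (x axis) for the 8 tested cytokines (black) and 19 receptor subunits (grey), with points for the estimate and bars for the 95% interval of edgeR's fit. All 8 cytokine intervals include 0, the one of Tgfb1 being the narrowest, and the intervals of Il9r (-1.54 to -0.59) and Il1r2 (0.14 to 1.26) do not, before any adjustment.

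Genes that process, release or neutralize the cytokines did not pass the test either. Of 20, all tested, 0 passed an adjusted or unadjusted p of 0.05 by edgeR, and the median log2 fold change was 0.06. The lowest unadjusted p-values by edgeR were 0.113 for Itgav (log2 fold change 0.16), an integrin subunit that releases TGF-β, and 0.199 for Adam17 (0.15), the protease that sheds TNF. The most abundant per length were Thbs1 (380 FPKM) and Ltbp4 (194 FPKM), a carrier of latent TGF-β. Of the inflammasome genes, Casp1, which encodes the protease, was at 31.9 ± 10.04 and 34.1 ± 2.32 CPM (SD, n = 4 each) in the control and anti-BAFF mice, and Pycard, the adaptor, at 17.0 ± 5.89 and 19.8 ± 2.60 CPM.

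Targets of the cytokines were read from short lists of known induced genes, and 0 genes in any of them passed an adjusted p of 0.05 by edgeR, DESeq2 or limma. The share of all genes at an unadjusted p under 0.05, 1.90%, is the background for the count in each list. Of 20 NF-κB target genes, 15 had a log2 fold change above 0, the median was 0.11 and 1 was higher at an unadjusted p under 0.05. That gene was Tnip1 (0.33, unadjusted p = 0.0310 by edgeR), which encodes an inhibitor of NF-κB. The next was Sod2 (0.25, unadjusted p = 0.0548 by edgeR), the mitochondrial superoxide dismutase. The most abundant per length were Nfkbia (518 FPKM), which encodes IκBα, and the chemokine gene Ccl2 (383 FPKM). Of 12 STAT3 target genes, 7 were above 0, the median was 0.05 and 1 was higher at an unadjusted p under 0.05. That gene was Timp1 (0.48, unadjusted p = 0.0446 by edgeR), which encodes a protease inhibitor. The next was Lcn2 (-0.27, unadjusted p = 0.212 by edgeR), which encodes lipocalin-2. Junb, an AP-1 subunit gene, was the most abundant per length, at 1178 FPKM, followed by Socs3 (423 FPKM). Socs3, the feedback inhibitor of gp130 signaling, was at 1264 ± 431 and 1181 ± 252 CPM (SD, n = 4 each) in the control and anti-BAFF mice.

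Of 16 IFN-γ target genes, 2 had a log2 fold change above 0 and the median was -0.10, but 0 passed an unadjusted p of 0.05 by edgeR. The lowest p-values were those of the chemokine gene Cxcl9 (-0.33, unadjusted p = 0.111 by edgeR) and of Socs1 (-0.41, unadjusted p = 0.158), and the most abundant per length were Irf1 (61.3 FPKM) and Gbp2 (39.0 FPKM). Of 12 TGF-β target genes, 7 were above 0, the median was 0.05 and 0 passed an unadjusted p of 0.05, with Acta2 (-0.36, unadjusted p = 0.228 by edgeR), which encodes smooth muscle actin, and Itgae (-0.34, unadjusted p = 0.317) nearest to it. Col1a1 was the most abundant per length, at 300 FPKM. Of the 15 dissociation and immediate early genes, 1 was above 0, the median was -0.23 and 0 passed an unadjusted p of 0.05, the nearest being the heat shock gene Hspa1a (-0.40, unadjusted p = 0.0563 by edgeR) and the stress-induced factor gene Atf3 (-0.25, unadjusted p = 0.119). Junb, which is also on the STAT3 list, and Zfp36 (591 FPKM), which encodes an mRNA decay factor, were its most abundant genes per length.

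Of 44 other cytokine genes, 26 passed the filter on low counts and 0 of these passed an adjusted p of 0.05 by edgeR. Csf1, the macrophage growth factor, was higher at an unadjusted p of 0.0401 (log2 fold change 0.30, SE 0.13, adjusted p = 1.00 by edgeR), at 170 ± 15.1 and 210 ± 35.8 CPM (SD, n = 4 each) in the control and anti-BAFF mice. The next lowest p was that of the alarmin gene Il33 (0.23, unadjusted p = 0.189 by edgeR). The most abundant per length were Gdf15 (70.5 FPKM), Csf1 (36.0 FPKM) and Il1a (27.5 FPKM), all below Il1b. Il1f6 and Il20 had no count in any mouse, as Il9 had none.

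**Figure D5:**
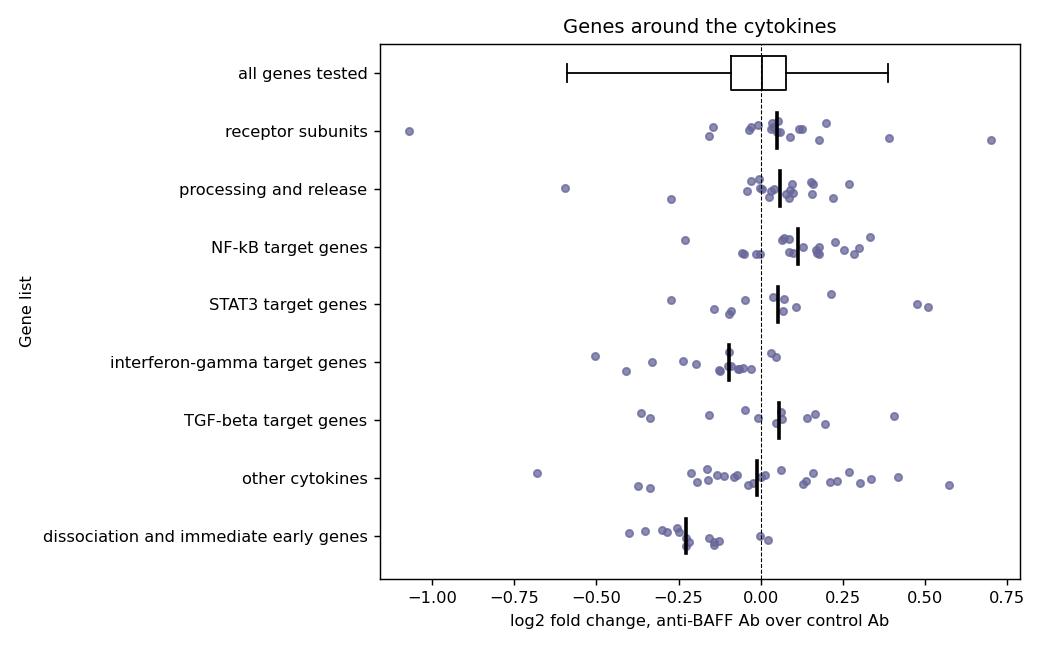
Log2 fold change of anti-BAFF Ab over control Ab (x axis) for the genes of each list (points, with the median as a black line, the vertical position within a row being arbitrary) and for all 15963 genes tested (box from the lower to the upper quartile, whiskers over the central 95%). List medians lie between -0.23 and 0.11, and the point of Il9r at -1.07 is the lowest shown.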

How the data were processed

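The authors sequenced paired-end bulk RNA libraries of the SVF on a NovaSeq instrument and deposited raw counts per gene in 1 table with a column per mouse, with gene coordinates and lengths. The submitters' processing notes name the build mm10, while the aligner, counter, annotation release and strand setting are not given in the sources used here. A further deposited column, another kind of value, holds each gene's length in bases and served to compute FPKM. Samples were grouped by the treatment in their labels, and mouse numbers are those of the labels.

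The test was that of edgeR 4.0.16 under R 4.3.3, with filterByExpr at a minimum count of 10, TMM, the quasi-likelihood test without the robust option, treatment as the only term and Benjamini-Hochberg adjustment over 15963 genes. Standard errors came from the F statistic. The log2 CPM used a prior count of 2 and the ratios of counts a pseudocount of 0.5. The steps were tested on simulated data with larger changes than those fitted for the cytokines, so that test does not cover changes of their size. DESeq2 1.42.0, limma 3.58.1 on log2(FPKM + 1), other normalizations and filters and left-out mice were alternatives. Promoter windows came from RefSeq's GRCm38.p6 table, which held 11 windows for 9 of the 10 cytokines, and were searched in Python 3.11.15. All columns were mapped to samples.

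The cytokines and gene lists were chosen with earlier results of these data known. The genes named are all 10 cytokines, receptors and processing genes as their partners, in each other list the 2 genes with the lowest p and the 2 with the highest FPKM (3 for other cytokines) and the 3 most similar genes per cytokine. Floors and shares of variance from counts cover counting error only, and reads without molecular identifiers are not independent molecules. Totals of 13562340 to 18548024 counts per mouse set the floor of 3 counts at 0.165 to 0.219 CPM.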

Additional observations from a re-analysis of the deposited data

Results flagged for a closer look

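Each of 66 groups of 4 mice was examined for a mouse far from the other 3, and 5 were found where chance gives about 3.3. The log2 ratio of Il1rn over Il1b counts was -0.45 in control mouse 1, against -2.05 to -1.88 in the other control mice. The same ratio was -0.79 in anti-BAFF mouse 7, against -1.88 to -1.77 in the other anti-BAFF mice. The log2 ratio of Tnf over Il10 counts was 1.85 in control mouse 1, against -0.19 to 0.08 in its group. The STAT3 target genes summed to 3654 CPM in control mouse 1, against 6664 to 7219 CPM in its group. The neutrophil markers summed to 344 CPM in anti-BAFF mouse 5, against 76.1 to 87.1 CPM in its group. The first 4 values belong to the mice in which Il6, Il1b, Il18 and Il10 were lowest, so they are not separate observations.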

How the results depend on the processing

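None of the 8 cytokines tested, and no gene tested of the 8 pathway lists, passed an adjusted p of 0.05 under any alternative run with edgeR, DESeq2 or limma. Ifng entered these fits only with no filter and in DESeq2, where it was not called, and Il9, with no counts, entered none. At an unadjusted p under 0.05, Tnf passed without control mouse 1, Il1rn and Lif without anti-BAFF mouse 7 or without mice 1 and 7, and Il1rn without mice 2 and 7. The share of all genes at that p was not worked out for these fits. The 1.90% of the main fit is not their background, so these passes cannot be set against it. Over all genes, 9 were called in the main analysis, 70 by DESeq2 (66 lower, 4 higher), 19 with no filter, 2 with the robust option, 3 without mice 2 and 7, 2 without mice 1 and 7 (chosen after seeing the data) and 2 to 9 when 1 mouse was left out. The log2 fold change of Il6 turned to -0.11 without mice 1 and 7 and that of Il10 to 0.31 without mice 2 and 7. When 1 mouse was left out, it ranged from -0.26 (without mouse 1) to 0.33 (without mouse 6) for Il6, -0.057 (without mouse 1) to 0.47 (without mouse 7) for Il1b, -0.0020 (without mouse 5) to 0.26 for Il18, -0.28 (without mouse 1) to 0.13 (without mouse 7) for Il10 and -0.0030 (without mouse 8) to 0.067 for Tgfb1, and the difference of Ifng from -0.0607 CPM (without mouse 5) to 0.194 CPM. Tnf (0.11 to 0.65), Lif (0.35 to 0.79) and Il1rn (0.12 to 0.34) stayed above 0. The causes were not tested. No paired analysis was possible because the groups share no mouse number. With 4 mice a group, the 95% intervals reached 2.57-fold for Lif and 2.26-fold for Il1b. Depth was too low for Ifng and Il9, and for Il18 counting gave 21.8% of the variance within the groups.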
